A study of Homo sapiens with 12 samples.

Results

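The genes described here are 8 effectors and guards of ferroptosis: ACSL4, LPCAT3, GPX4, SLC7A11, AIFM2, TFRC, SLC40A1 and NCOA4. They were chosen by name, as genes that set how readily phospholipids with polyunsaturated acyl chains are peroxidized, out of 57773 genes in the deposited table. All 8 had a row in the table. Their transcripts were read in 12 RNA sequencing libraries of A498, an established human kidney carcinoma cell line. Cells had received an siRNA against ELOVL2 (siELOVL2), an siRNA against ELOVL5 (siELOVL5), both of these siRNAs (double knockdown) or a control siRNA, and each of the 4 groups had 3 biological replicates. All groups thus share the line and an siRNA transfection, and the labels give neither the siRNA sequences nor the hours between transfection and harvest. ELOVL2 and ELOVL5 are elongases of the endoplasmic reticulum that lengthen polyunsaturated fatty acids, and the comparisons ask how the 8 transcripts differed when either elongase or both were lowered.

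Ferroptosis is a form of cell death in which polyunsaturated phospholipids of the membrane are peroxidized in an iron-dependent chain. Cells are made sensitive by enzymes that place polyunsaturated acyl chains in phospholipids and by free ferrous iron, and they are protected by a selenoprotein that reduces lipid peroxides with glutathione and by a parallel ubiquinone-based system at the plasma membrane. Clear cell kidney carcinoma lines are known as sensitive to the loss of that selenoprotein, GPX4.

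Of the 8 genes, GPX4 was the single one that passed the test in any of the 7 comparisons made. It was higher after siELOVL2 and after the double knockdown than in control cells, and its level after siELOVL5 was close to that of control. ACSL4 lay above the 3 control libraries in all 9 knockdown libraries but passed the test only when siELOVL5 replicate 3 was left out, or, after siELOVL2, in a fit of those 2 groups alone. The iron genes TFRC and NCOA4 and the acyltransferase LPCAT3 overlapped control in most knockdown groups, and SLC40A1 was hardly detected.

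Short sequences show how 3 of the 8 transcripts are read or controlled. GPX4 carries selenocysteine at its active site, encoded by a TGA that would otherwise end the protein. In a GENCODE 29 transcript of GPX4 this TGA was codon 73. Capitals mark it in the coding sequence around it, which spans chr19:1105388-1105417 (GRCh38) on the plus strand. This stretch is shown because GPX4 was the gene that was called.

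GPX4 selenocysteine codon: aacgtggcctcccagTGAggcaagaccgaa

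TFRC and SLC40A1 are controlled after transcription through iron-responsive elements, hairpins whose CAGTGN loop is bound by iron regulatory proteins when iron is low. Binding in the 3′ UTR keeps the TFRC transcript stable, and binding in the 5′ UTR holds back translation of SLC40A1, FTL and FTH1. A search for a C, 5 bases, CAGTG, a base other than G and 5 bases that pair with the first 5 (G-U pairs allowed) was made on the sense strand in the UTRs of 1 transcript per gene. It found elements in 86 of 19669 protein-coding genes (0.437%), with 4 in TFRC and 1 in SLC40A1. Elements that depart from this pattern would be missed. Each element below is 29 bases long with its loop in capitals, and those of the ferritin chains FTL and FTH1 are given for comparison.

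TFRC 3′ UTR, chr3:196050979-196051007, minus strand: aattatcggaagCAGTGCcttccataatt

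TFRC 3′ UTR, chr3:196050575-196050603, minus strand: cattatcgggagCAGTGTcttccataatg

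TFRC 3′ UTR, chr3:196050510-196050538, minus strand: ctgtatcggagaCAGTGAtctccatatgt

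TFRC 3′ UTR, chr3:196050463-196050491, minus strand: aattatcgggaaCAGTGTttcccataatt

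SLC40A1 5′ UTR, chr2:189580661-189580689, minus strand: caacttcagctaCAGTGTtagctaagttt

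FTL 5′ UTR, chr19:48965335-48965363, plus strand: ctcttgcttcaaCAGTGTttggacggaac

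FTH1 5′ UTR, chr11:61967574-61967602, minus strand: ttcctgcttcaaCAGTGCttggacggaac

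Normalized counts, the unit of all levels here, are read counts per gene that the authors had quantile-normalized. Every library therefore totals the same 8.525 M, and ties among low counts put the original depth at 6.70 to 10.7 M reads. Both siRNAs lowered their targets: ELOVL2 averaged 25.2 ± 6.05 (SD, n = 3) with siELOVL2 and 23.9 ± 3.53 with the double knockdown, against 269.9 ± 50.7 in control. ELOVL5 averaged 148 ± 7.43 with siELOVL5 and 179 ± 7.50 with the double knockdown, against 1977 ± 53.2 in control. Of 9 markers of kidney carcinoma cells, all 9 had a median of at least 1, with PAX8 at a median of 576, although the hypoxia-inducible factor targets CA9 and NDUFA4L2 stood at only 11.3 and 4.25. Of other cell types, the leukocyte genes PTPRC and CD3E, the endothelial CDH5 and the fibroblast COL3A1 had a median of 0. CD14 had a median of 4.08, VWF of 1.88 and PDGFRB of 19.2, and COL1A1 was present at 249.6 to 436. One library stood apart from the rest: in siELOVL5 replicate 3 the median deviation from the gene means was -0.05 on the log2 scale, and the other 11 libraries lay between -0.01 and 0.02. For siELOVL5 comparisons of these genes with control, values without this library are given too where there are reads to compare.

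Among the 8 transcripts, levels in control cells can be compared per kilobase of exon (GENCODE 29 exon lengths). NCOA4 was the most abundant at 670 normalized counts per kb, followed by TFRC at 563, GPX4 at 384, ACSL4 at 314 and SLC7A11 at 200.1. LPCAT3 at 55.8 and AIFM2 at 30.5 were several times lower, and SLC40A1 stood at 0.225. Of the 8 genes, all passed the filter on low values, SLC40A1 through libraries with 1 or 2 reads.

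**Figure D1:**
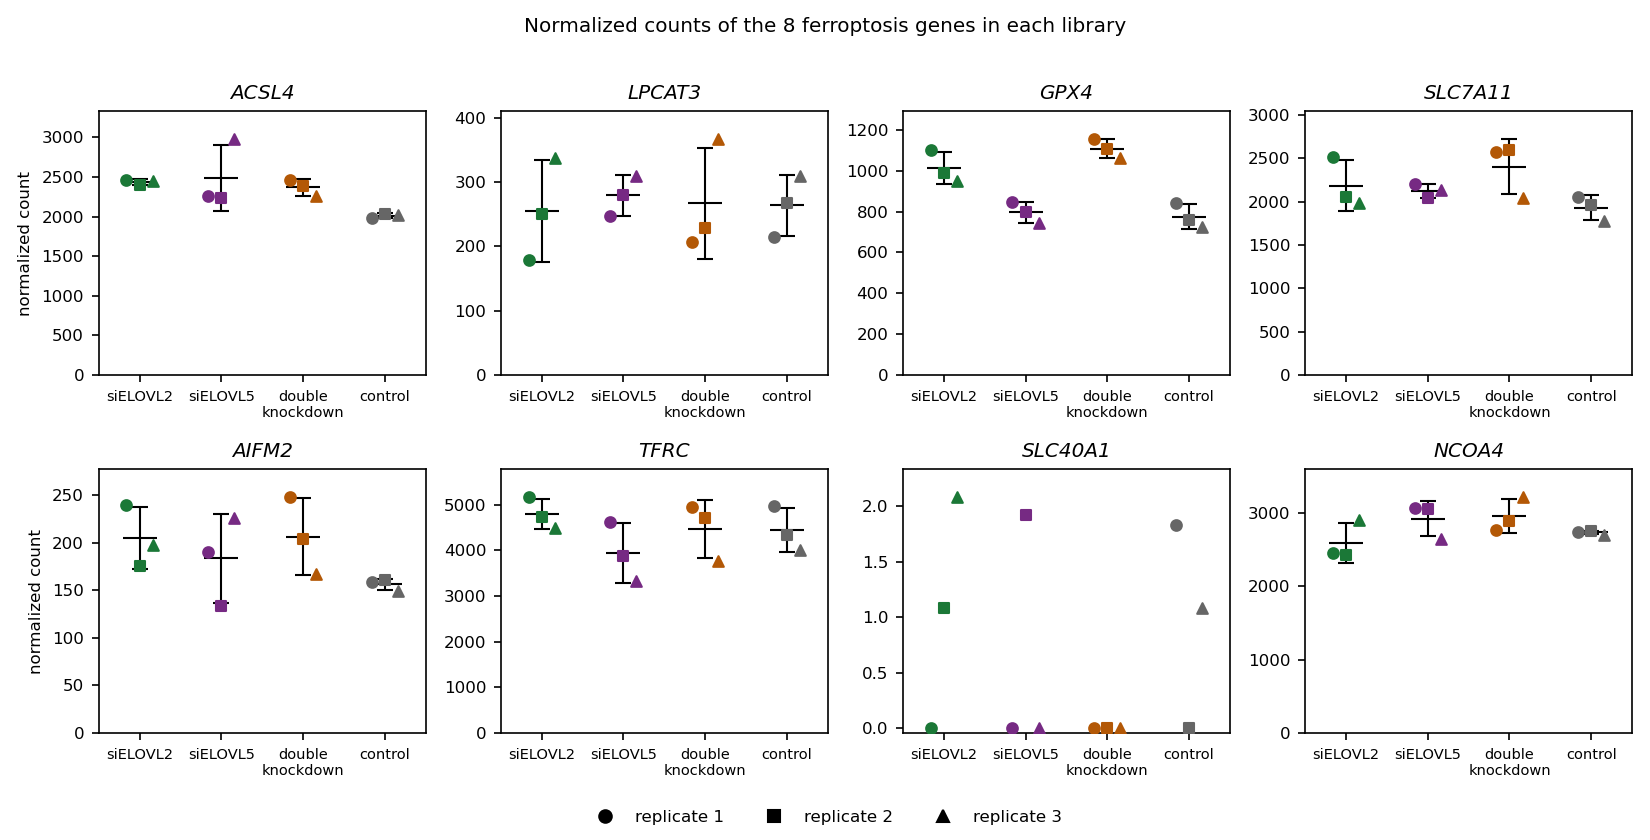
Normalized counts (y axis, linear, from 0) of the 8 genes in every library, by siRNA group (x axis); symbols mark the replicate number, horizontal bars the mean and whiskers the SD (n = 3; not drawn for SLC40A1). GPX4 lies between 949.8 and 1152 in siELOVL2 and double-knockdown libraries, above the 725.75 to 847.8 of siELOVL5 and control libraries, and all 9 knockdown libraries of ACSL4 lie above its 3 control libraries.

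The substrate side comes first. ACSL4 is the acyl-CoA synthetase that activates arachidonic and adrenic acid and is a main determinant of ferroptosis sensitivity. It stood at 2468, 2401 and 2450 normalized counts in siELOVL2 replicates 1, 2 and 3, at 2255, 2241 and 2973 in the siELOVL5 replicates and at 2468, 2382 and 2261 in the double-knockdown replicates. The control replicates held 1983, 2033.5 and 2023. The 9 knockdown libraries were thus all higher than the 3 control libraries, which held for 1.34% of the 18648 genes tested, and siELOVL5 replicate 3 was the highest of the 12.

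The group means were 2440 ± 34.8 with siELOVL2, 2490 ± 419 with siELOVL5 and 2370 ± 104 with the double knockdown, against 2013 ± 26.8 in control (SD, n = 3 each). The log2 fold changes were 0.28, 0.29 and 0.23 in that order (SE 0.10 each), and none passed the test, with limma adjusted p of 0.195, 0.356 and 0.203. In a bulk library, fewer cells of a type and less RNA per cell cannot be told apart. The SE, which all groups share, was 0.10 with siELOVL5 replicate 3 and 0.05 without it. Without that library the changes after siELOVL2 and the double knockdown stayed at 0.28 and 0.23, but were called (limma adjusted p of 0.0101 and 0.0123). That fit called 829 and 1775 genes in all. The library left out belongs to neither of these 2 comparisons. Each was called in just this 1 of the 12 fits that left out 1 library, and elsewhere the adjusted p was at least 0.185. Without siELOVL5 replicate 3 the siELOVL5 change was 0.16 (limma adjusted p = 0.499). The effect of both siRNAs together differed from the sum of the single ones by -0.34 (SE 0.14), with an unadjusted p of 0.0275 and a limma adjusted p of 0.996, and by -0.20 without siELOVL5 replicate 3. With all libraries the 3 knockdown groups differed from each other by 0.06 or less on the log2 scale, with 95% intervals that lay between -0.27 and 0.22. Without siELOVL5 replicate 3, siELOVL5 minus siELOVL2 was -0.12 in place of 0.02 and double knockdown minus siELOVL5 was 0.08 in place of -0.06 (limma adjusted p of 0.304 and 0.533).

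LPCAT3, the lysophospholipid acyltransferase that puts such activated chains into membrane phospholipids, did not separate the groups. It stood at 179, 250.2 and 337 normalized counts in siELOVL2 replicates 1, 2 and 3, at 247, 279.7 and 310.0 with siELOVL5, at 206, 228 and 366 with the double knockdown and at 215, 267 and 309 in control. Replicate 1 was the lowest and replicate 3 the highest in each group, and all 4 groups overlapped. The log2 fold changes against control were -0.08 for siELOVL2, 0.09 for siELOVL5 and -0.01 for the double knockdown (SE 0.24 each, limma adjusted p of 0.934, 0.935 and 0.998). Their 95% intervals reached from -0.59 to 0.61, and without siELOVL5 replicate 3 the siELOVL5 change was 0.01. LPCAT3 counts are also uncertain because 3100 of its 4725 exon bases overlap EMG1 on the opposite strand, a gene at 281 to 394 normalized counts, and strand use in the counting is not given in the sources used here.

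The guards of the membrane follow. GPX4 reduces phospholipid hydroperoxides with glutathione and is the central enzyme that holds ferroptosis back. It stood at 1102.5, 989 and 949.8 normalized counts in siELOVL2 replicates 1, 2 and 3, at 847.8, 796.25 and 743.8 with siELOVL5 and at 1152, 1106 and 1060.5 with the double knockdown. The control replicates held 842.2, 757.25 and 725.75. Every siELOVL2 and every double-knockdown library was higher than every siELOVL5 and every control library, while siELOVL5 and control libraries overlapped.

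The mean of GPX4 was 1014 ± 79.3 with siELOVL2, 796 ± 52.0 with siELOVL5 and 1106 ± 45.8 with the double knockdown, against 775 ± 60.2 in control (SD, n = 3 each). With the double knockdown it was higher by 0.51 (log2, SE 0.08; limma adjusted p = 0.00447), which is 1.43-fold, and 2.15% of tested genes were called higher in that comparison. With siELOVL2 alone it was higher by 0.39 (SE 0.08, limma adjusted p = 0.0423), or 1.31-fold, where 0.547% of genes were called higher. With siELOVL5 alone the change was 0.04 (95% interval -0.14 to 0.22, limma adjusted p = 0.919; 0.09 without siELOVL5 replicate 3), and 0.139% of genes were called in either direction. The groups also differed in markers: the summed level of 3 fibroblast and pericyte genes, 2 of them with a median of at least 1 and COL3A1 at a median of 0, was 268 to 355 in siELOVL2 and 275 to 325 in double-knockdown libraries, 397 to 444 in siELOVL5 libraries and 362 to 460.0 in control. The sum of the 9 kidney carcinoma markers was 29069 to 29734 in siELOVL2, 29258 to 34058 in siELOVL5 and 27245 to 30322 in double-knockdown libraries, against 33451 to 36613 in control. These sums mostly follow their highest genes. VIM and KRT8 had medians of 16404 and 6600 where PAX8 had 576, and COL1A1 had 335 where PDGFRB had 19.2. The part of these marker differences in the GPX4 result was not tested.

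Set against each other, the groups gave the same order for GPX4: the double knockdown, siELOVL2, siELOVL5 and control. Neighbours at either end did not differ past the threshold: the double knockdown lay 0.13 above siELOVL2 (95% interval -0.05 to 0.31, limma adjusted p = 1), in a comparison where 0.059% of genes were called. In the middle, GPX4 was lower in siELOVL5 than in siELOVL2 cells by 0.35 (log2 fold change -0.35, SE 0.08, limma adjusted p = 0.0451), and 1.56% of genes were called lower. With siELOVL5 present in both groups, the double knockdown exceeded siELOVL5 by 0.48 (limma adjusted p = 0.0115), and 1.36% of genes were called higher. The interaction for GPX4 was 0.09 (SE 0.12, 95% interval -0.17 to 0.35, limma adjusted p = 0.996). The limma interaction test called 0% of genes, and 9 genes were called without the intensity trend. Of the 18648 genes tested, 522 had an unadjusted limma p under 0.05 for the interaction, the fewest of the 7 comparisons. These counts do not show that interactions are absent, and the fit left the replicate number out.

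These calls differed in how far they rested on single libraries. The double-knockdown rise of GPX4 was called in all 12 fits that left out 1 library, with limma adjusted p between 0.00153 and 0.0300. The siELOVL2 rise was called in 3 of the 12. Its adjusted p was 0.0695, 0.177 and 0.138 without control replicates 1, 2 and 3, and 0.147, 0.128 and 0.0821 without siELOVL2 replicates 1, 2 and 3. It was 0.0634 without siELOVL5 replicate 2, and 0.0614 and 0.0718 without double-knockdown replicates 1 and 2, whereas without siELOVL5 replicate 3 it was 0.0151. The excess of the double knockdown over siELOVL5 was lost without double-knockdown replicate 1 (0.0549) or 2 (0.0553). The difference between siELOVL5 and siELOVL2 was kept without double-knockdown replicate 3 (0.0469) and lost without any one of the other 11 libraries, where the adjusted p reached 0.143. The fold changes kept their sign throughout. None of these fits held the replicate number, although GPX4 was highest in replicate 1 and lowest in replicate 3 of each group. With that number as a block and all 12 libraries, limma adjusted p was 0.00295 for the siELOVL2 rise and 0.00393 for siELOVL5 against siELOVL2. The labels do not say whether same-numbered libraries were paired.

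**Figure D2:**
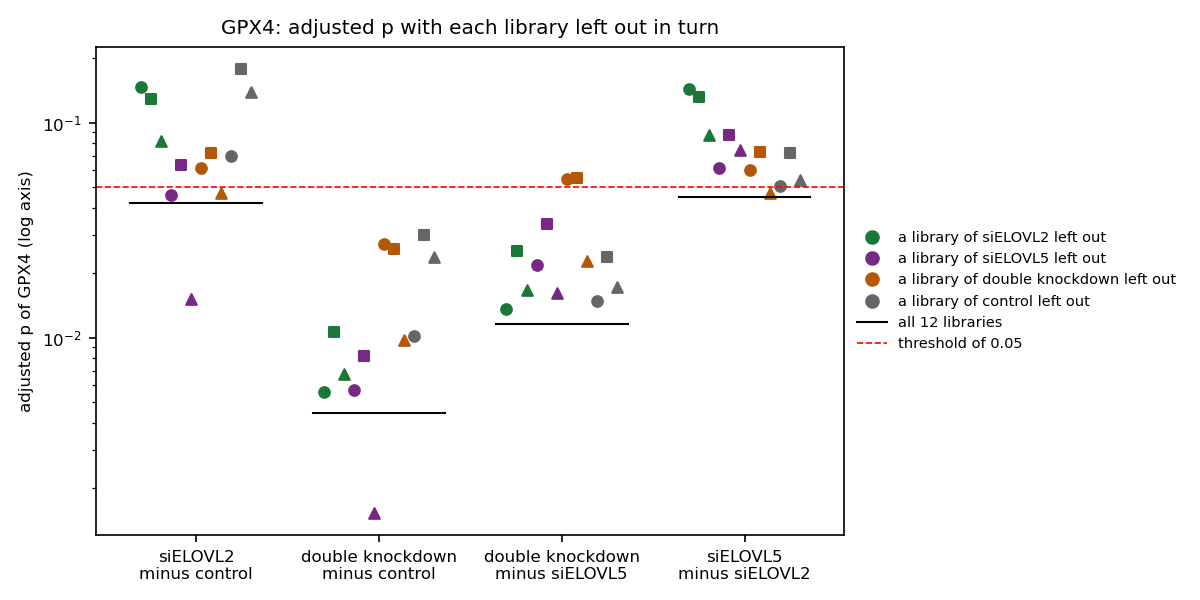
Adjusted p of GPX4 (limma, y axis, log scale) in the 4 comparisons that called it (x axis), with each library left out in turn; colour gives the group of the library left out, symbols its replicate number (circle 1, square 2, triangle 3), the black bar the value with all 12 libraries and the dashed line the threshold of 0.05. All 12 points of the double knockdown against control lie under the threshold, from 0.00153 to 0.0300, while 9 of 12 for siELOVL2 against control lie above it.

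The genes whose pattern over the 12 libraries was most like that of GPX4, among 9323 genes at or above the median level of 93.8 normalized counts, were ISCU, DCTN5 and VPS25. ISCU, the scaffold on which iron-sulfur clusters are assembled, had a Pearson correlation of 0.960 with GPX4 over 12 libraries on the log2 scale. DCTN5, a subunit of dynactin, and VPS25, a subunit of the ESCRT-II complex, had 0.956 each. These values describe libraries that share the treatments and the replicate numbers. The 3 genes were picked for likeness over these same libraries, so group changes like those of GPX4 follow from the choice. In the double knockdown ISCU was at 0.30 (limma adjusted p = 0.0874), DCTN5 at 0.28 (0.0474) and VPS25 at 0.46 (0.00728), and after siELOVL5 all 3 lay within 0.02 of control. The DCTN5 call was lost in 11 of 12 fits that left out 1 library, and that of VPS25 in none.

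SLC7A11 is the cystine-importing subunit of the exchanger that feeds glutathione synthesis. It stood at 2517, 2054 and 1985 normalized counts in siELOVL2 replicates 1, 2 and 3, at 2205, 2038 and 2129 with siELOVL5, at 2568.5, 2601 and 2046 with the double knockdown and at 2057, 1960 and 1773 in control. In each knockdown group at least 1 library fell inside the control range, among them double-knockdown replicate 3. The log2 fold changes were 0.17 for siELOVL2, 0.14 for siELOVL5 and 0.31 for the double knockdown (SE 0.11 each), with limma adjusted p of 0.534, 0.718 and 0.138. Without siELOVL5 replicate 3 the siELOVL5 change was again 0.14. The double-knockdown interval was 0.07 to 0.55, and without double-knockdown replicate 3 the change was 0.42 (limma adjusted p = 0.0464). SLC7A11 was called in just this 1 of the 12 fits that left out 1 library. In the rest its adjusted p was 0.101 to 0.349. Its antisense gene SLC7A11-AS1 shares 865 exon bases and held at most 1.83 normalized counts.

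AIFM2, also known as FSP1, regenerates ubiquinol at the plasma membrane and guards lipids without glutathione. Its normalized counts were 240.2, 176 and 198 in siELOVL2 replicates 1, 2 and 3, 191, 134 and 226.5 with siELOVL5, 248, 204 and 167 with the double knockdown, and 158.5, 161 and 149.8 in control. All siELOVL2 and all double-knockdown libraries lay above the 3 control libraries, whereas siELOVL5 replicate 2 was the lowest of all 12. The log2 fold changes were 0.38, 0.20 and 0.38 for siELOVL2, siELOVL5 and the double knockdown (SE 0.19 each, limma adjusted p of 0.420, 0.776 and 0.310). Without siELOVL5 replicate 3 the siELOVL5 change of AIFM2 was 0.03 (limma adjusted p = 0.996). The knockdown groups had SDs of 32.7 to 46.8 where control had 5.80, and no change was called.

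Iron supply and storage were the remaining roles. TFRC is the transferrin receptor that brings iron into the cell, and the 4 elements printed above lie in the 3′ UTR of its transcript. It stood at 5157, 4736 and 4493 normalized counts in siELOVL2 replicates 1, 2 and 3, at 4617, 3870 and 3324 with siELOVL5, at 4952, 4707 and 3754 with the double knockdown and at 4967, 4341 and 4008 in control. Replicate 1 was the highest and replicate 3 the lowest in every group, and each knockdown group overlapped control. The log2 fold changes were 0.11 for siELOVL2, -0.18 for siELOVL5 and 0.01 for the double knockdown (SE 0.13 each, limma adjusted p of 0.770, 0.696 and 1). The largest difference of TFRC was between siELOVL5 and siELOVL2, at -0.30 (unadjusted p = 0.0432, limma adjusted p = 0.273). Without siELOVL5 replicate 3 that difference was -0.18 (limma adjusted p = 0.530), and siELOVL5 against control was -0.06 (0.962).

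NCOA4 carries ferritin to the lysosome, where its iron is released. Its normalized counts were 2446, 2427 and 2904 in siELOVL2 replicates 1, 2 and 3, 3070.2, 3047.5 and 2645 with siELOVL5, 2769, 2881 and 3210 with the double knockdown, and 2744, 2749 and 2700.4 in control. The 3 double-knockdown libraries were all above control, by as little as 2769 against 2749, and the single knockdowns had libraries on both sides of it. The log2 fold changes were -0.08, 0.09 and 0.11 for siELOVL2, siELOVL5 and the double knockdown (SE 0.09 each, limma adjusted p of 0.763, 0.775 and 0.570). Without siELOVL5 replicate 3 the siELOVL5 change was 0.16 (limma adjusted p = 0.749).

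SLC40A1 encodes ferroportin, the iron exporter. The recovered reads were 0, 1 and 2 in siELOVL2 replicates 1, 2 and 3, 0, 2 and 0 with siELOVL5, 0 in each double-knockdown replicate, and 1, 0 and 1 in control. At this depth no difference between groups was detectable, so no fold change is given. A gene with no read could hold up to 0.917 normalized counts after the authors' step.

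**Figure D3:**
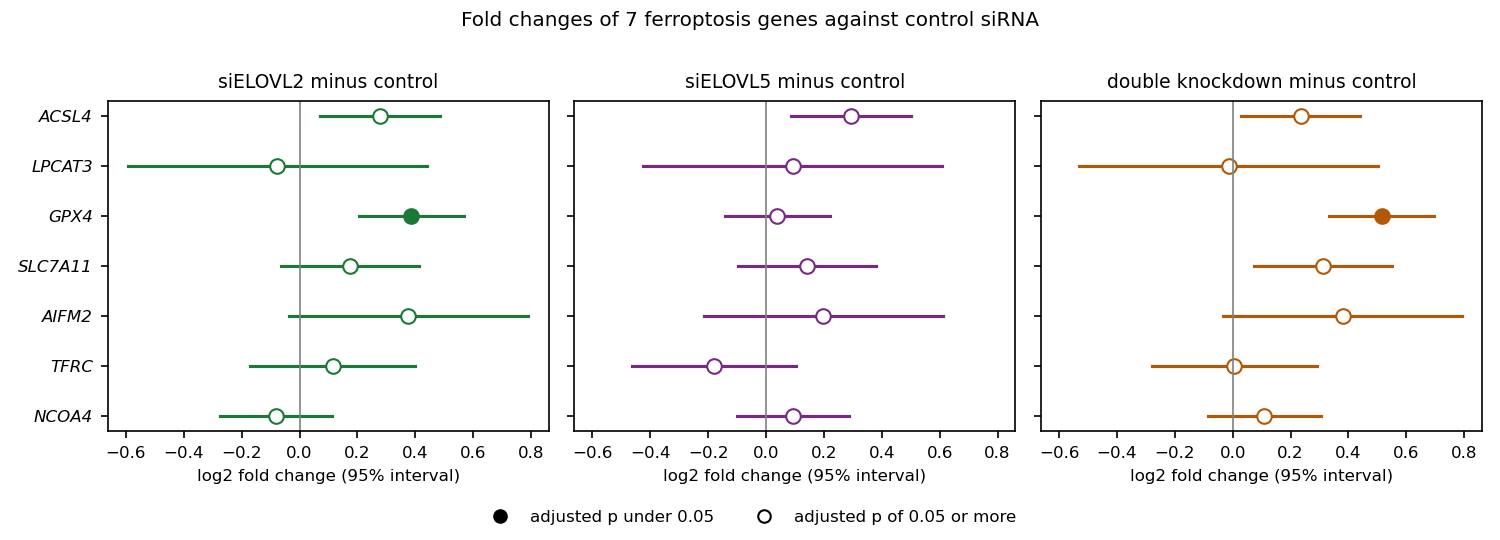
Log2 fold change (x axis) of 7 of the 8 genes against control siRNA after siELOVL2, siELOVL5 and the double knockdown, with 95% intervals from the limma fit; filled points have an adjusted p under 0.05 and SLC40A1 is left out for want of reads. GPX4 is filled at 0.39 after siELOVL2 and 0.51 after the double knockdown, and at 0.04 after siELOVL5 its interval spans 0.

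Counted together, 1 of the 8 genes was called higher after siELOVL2 and 1 after the double knockdown, which was GPX4 in both, and 0 after siELOVL5. An unadjusted limma p under 0.05 was found for 2 of the 8 after siELOVL2, 1 after siELOVL5 and 3 after the double knockdown, where 13.7%, 9.56% and 18.8% of all genes had one. The 3 comparisons share the same control libraries. Because the 8 genes were chosen with earlier results of these data known, the shares of all genes in this paragraph give scale only. Every siELOVL2 library lay above every control library for 3 of the 8 genes (ACSL4, GPX4 and AIFM2), as it did for 12% of all genes tested. That held after siELOVL5 for ACSL4 alone (6.07% of genes) and after the double knockdown for ACSL4, GPX4, AIFM2 and NCOA4 (13.4% of genes). The median log2 fold change of the 8 genes was 0.14, 0.09 and 0.17 after siELOVL2, siELOVL5 and the double knockdown, where that of all genes was 0.02, -0.00 and 0.02. Without SLC40A1 it was 0.17, 0.09 and 0.23.

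The other genes of these routes were read from 5 lists with 98 genes, of which 93 were tested. The lists were chosen with earlier results of these data known, and all genes were not matched to them by level. The shares of all genes below therefore give scale only. They cannot decide whether calls are more frequent in these lists than elsewhere. After siELOVL2, 5 were called higher and 0 lower, when 0.547% of all genes were called higher and 0.815% lower. After siELOVL5 none was called by limma, against 0.139% of all genes. After the double knockdown 10 were called higher and 3 lower, when 2.15% of all genes were called higher and 2.27% lower. An unadjusted limma p under 0.05 was found for 24, 16 and 33 of the 93 after siELOVL2, siELOVL5 and the double knockdown. Of all genes, 13.7%, 9.56% and 18.8% had one, in the same order. The median over the 93 genes was 0.07, 0.01 and 0.10 after siELOVL2, siELOVL5 and the double knockdown.

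On the substrate side, among 21 lipid substrate and peroxidation genes, POR was higher after siELOVL2 by 0.82 and after the double knockdown by 0.85 (log2; limma adjusted p of 0.00123 and 4.73e-04). POR passes electrons from NADPH to cytochromes P450 and is known to promote lipid peroxidation. Its normalized counts were 2929, 3210 and 3518 in siELOVL2 replicates 1, 2 and 3 and 3053, 3169 and 3614 with the double knockdown, against 1712, 1759 and 1987 in control. All 6 of these knockdown libraries lay above control, and the siELOVL5 libraries overlapped it at 1696 to 2029. AGPAT3, an acyltransferase that uses polyunsaturated acyl-CoA, was called after the double knockdown (0.43, limma adjusted p = 0.0231), but not without control replicate 1 or 2 or double-knockdown replicate 1 or 2, where the adjusted p was 0.0752 to 0.108. The list medians were 0.13, -0.03 and 0.17 after siELOVL2, siELOVL5 and the double knockdown, with 12, 9 and 12 of 21 genes above control.

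Beside SLC7A11 and GPX4, 20 cystine, glutathione and selenoprotein genes had medians of 0.19, 0.11 and 0.17 after siELOVL2, siELOVL5 and the double knockdown, with 15, 14 and 16 genes above control. GCLM, the modifier subunit of glutamate-cysteine ligase in glutathione synthesis, was higher by 0.75 after siELOVL2 and by 0.71 after the double knockdown (limma adjusted p of 0.00103 and 7.14e-04). GCLC, its catalytic subunit, was called after the double knockdown (0.42, limma adjusted p = 0.0123), but not without control replicate 1 or 2 or double-knockdown replicate 2, where the adjusted p was 0.0563 to 0.0653. Beside AIFM2, 1 of 13 quinone and pterin guards was called, the quinone reductase NQO1, at 0.47 after siELOVL2 and 0.45 after the double knockdown (limma adjusted p of 0.0183 and 0.00950). The medians of that list were 0.09, -0.05 and 0.11 after siELOVL2, siELOVL5 and the double knockdown. The NQO1 call after siELOVL2 was lost in 5 of 12 fits, those without control replicate 1 or 2 or any siELOVL2 replicate (0.0539 to 0.112), and after the double knockdown it was lost without control replicate 2 (0.0630).

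Beside the iron genes TFRC, SLC40A1 and NCOA4, 19 genes of iron uptake, storage and export were tested, with medians of 0.13, -0.04 and 0.04 after siELOVL2, siELOVL5 and the double knockdown. The calls of POR, GCLM and HMOX1 in both comparisons held in all 12 fits that left out 1 library. HMOX1, which frees iron from heme, was called higher by 2.48 after siELOVL2 and by 2.32 after the double knockdown (limma adjusted p of 9.52e-05 and 1.14e-04). In siELOVL5 cells HMOX1 stood at 1441 to 1883 normalized counts against 2508 to 3298 in control. That change of -0.76 was not called (limma adjusted p = 0.269), nor was it in any fit that left out 1 library. SLC11A2, the ferrous iron transporter DMT1, was called at 0.36 after siELOVL2 and 0.38 after the double knockdown (limma adjusted p of 0.0201 and 0.00586). All 6 of those libraries held 729 to 783 normalized counts of SLC11A2, against 568 to 592 in control, yet the siELOVL2 call was lost without any 1 of the 6 siELOVL2 and control libraries (0.0737 to 0.0981). FTL, the ferritin light chain whose element is printed above, was called after the double knockdown (0.44, limma adjusted p = 0.0260), but not without control replicate 1 or 2 or any double-knockdown replicate (0.0614 to 0.122). FTL has many processed pseudogenes that can share its reads, so its value is uncertain. Quantile normalization also gives the highest genes values from a fixed set. FTL held exactly 24170.4 in siELOVL2 replicate 3 and double-knockdown replicates 2 and 3, and exactly 19790.1 in control replicate 3 and siELOVL5 replicate 2.

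Among 20 ferroptosis regulators the medians were 0.01, 0.18 and 0.02 after siELOVL2, siELOVL5 and the double knockdown, and the calls were confined to the double knockdown among the 3 comparisons with control. PRKAA1, the catalytic alpha-1 subunit of AMP-activated kinase, fell by 0.46 (limma adjusted p = 0.00303) and HIF1A, the hypoxia-inducible factor subunit, fell by 0.39 (0.00772). Both stayed called in all 12 fits that left out 1 library. WWTR1, the transcriptional co-activator TAZ, fell by 0.38 (0.0137; lost without control replicate 2 or double-knockdown replicate 2, 0.0731 and 0.0786). BAP1, a deubiquitinase, was called higher at 0.35 (limma adjusted p = 0.0326) and lost in 6 of 12 fits, those without any control replicate, siELOVL2 replicate 2 or double-knockdown replicate 1 or 2 (0.0570 to 0.123).

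**Figure D4:**
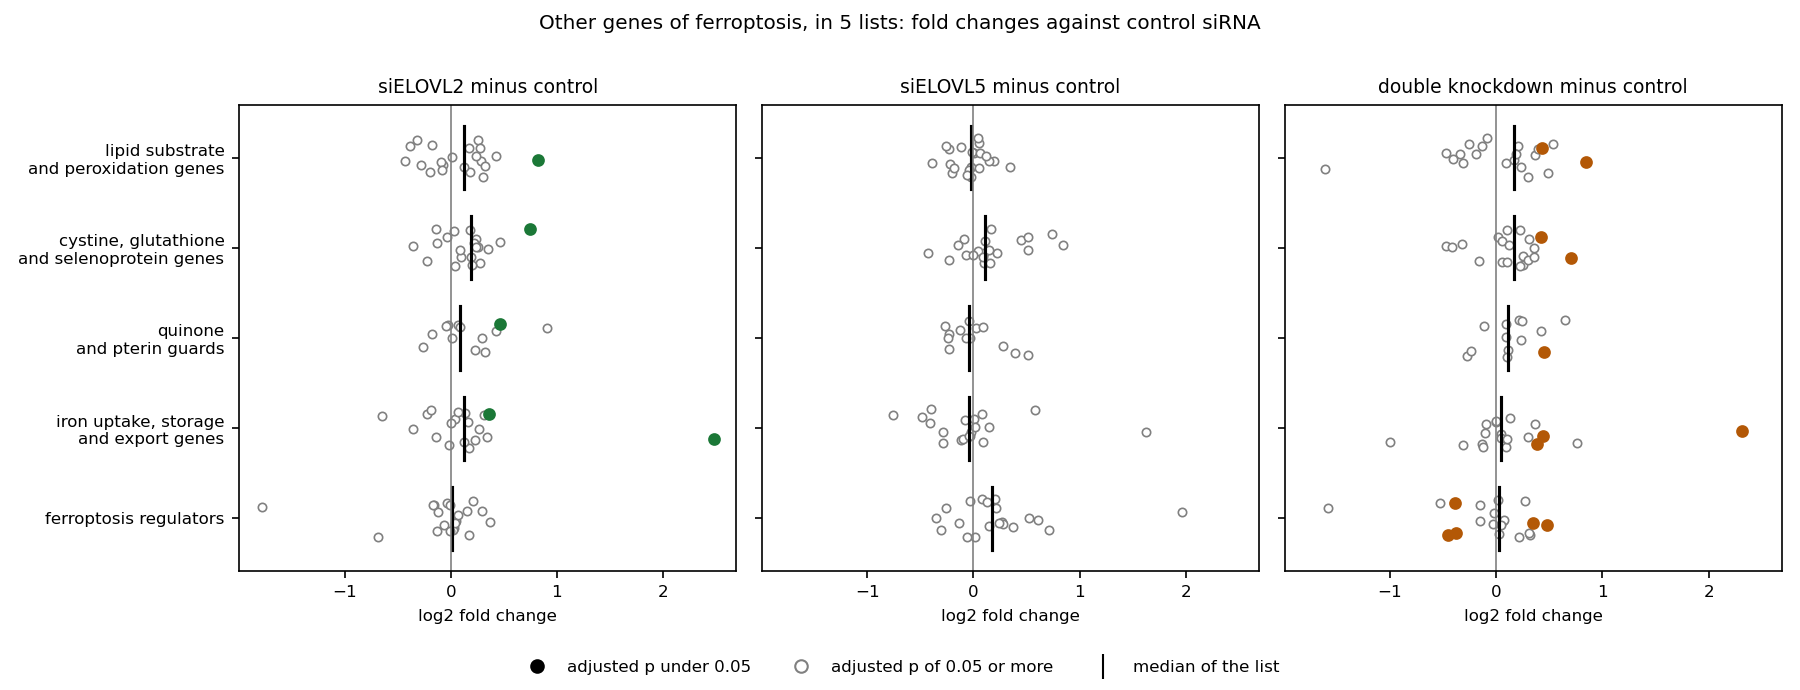
Log2 fold changes (x axis) against control siRNA of 93 other genes of ferroptosis in 5 lists (y axis; points are spread vertically for legibility), after siELOVL2, siELOVL5 and the double knockdown; filled points have a limma adjusted p under 0.05 and black bars are list medians. Filled points number 5 after siELOVL2, 0 after siELOVL5 and 13 after the double knockdown, with HMOX1 farthest to the right.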

How the data were processed

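Per the labels, A498 RNA was read as 36-base pairs. The deposited signal values are read counts per gene that the authors had quantile-normalized: all 12 columns hold the same set of values, so a shift of most transcripts cannot be seen. The aligner, read counter, annotation and assembly were not given in the sources used here. Depth, and the reads of SLC40A1, were recovered from the order of tied values, a step tested on simulated data.

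Log2(value + 1) was fitted with limma (version 3.58.1, R 4.3.3) for the 18648 genes that reached 1 in 3 or more libraries. The fit held the means of all 4 groups (8 residual degrees of freedom) and moderated variances with an intensity trend. P-values were adjusted by Benjamini-Hochberg within each of the 7 comparisons, and a gene is called at an adjusted p under 0.05. The interaction is the double-knockdown effect less the effects of both single knockdowns. Fold changes on this scale understate those of low genes. The labels call the replicates biological and do not say whether they were separate cultures, so p-values measure the spread between these libraries.

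The 8 genes and the 5 lists were chosen with earlier results of these data known. Up to 4 called genes per list and comparison with control, those with the largest change, and the 3 genes most correlated with a called gene were named; BAP1 was outside this rule and was named after its values were seen. Some genes of the lists are counted but not reported here by name. Sequences, exon lengths and overlaps are from GENCODE 29 on GRCh38, using for the element search the transcript with the longest coding part. Alternatives were equal library medians, a pseudocount of 4, no filter, a minimum of 10, no trend, a replicate block, only the groups compared, and each library left out.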

Additional observations from a re-analysis of the deposited data

How the results depend on the processing

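The number of the 8 genes called (siELOVL2 against control 1, siELOVL5 against control 0, double knockdown against control 1, double knockdown against siELOVL2 0, double knockdown against siELOVL5 1, siELOVL5 against siELOVL2 1, interaction 0) was the same with a pseudocount of 4 and a minimum of 10. With equal library medians or no filter, siELOVL5 against siELOVL2 was 0 (GPX4 adjusted p of 0.0586 and 0.0534). With no trend, siELOVL2 against control, double knockdown against siELOVL5 and siELOVL5 against siELOVL2 were 0 (0.130, 0.0565 and 0.126). With only the groups compared, the last of these and double knockdown against siELOVL5 were 0 (0.176 and 0.115), and siELOVL2 against control stayed at 1 with ACSL4 (0.0300) in place of GPX4 (0.0726). Leaving out 1 library gave 0 to 2 for siELOVL2 against control, 1 to 2 for double knockdown against control, and 0 to 1 for double knockdown against siELOVL5 and for siELOVL5 against siELOVL2. The causes were not tested, but fits of only the groups compared have fewer libraries. No result changed sign with a call. The labels do not say whether same-numbered libraries were paired. Of 18 such pairs, 9 had a correlation of deviations over 0.1 (-0.0012 to 0.212), and 10 of 12 libraries correlated best with their own number. With the replicate number as a block, GPX4 was called in the same comparisons as in the fit reported. Its limma adjusted p was 0.00295 for siELOVL2 and 2.49e-04 for double knockdown against control. It was 6.5e-04 for double knockdown against siELOVL5 and 0.00393 for siELOVL5 against siELOVL2. The replicate block gave 2 for double knockdown against control (SLC7A11 added, 0.0271) and 2 for siELOVL5 against siELOVL2 (TFRC added, 0.0193), and all-gene counts of 861, 99, 1866, 1368 and 1317 for siELOVL2, siELOVL5 and double knockdown against control, double knockdown against siELOVL5 and siELOVL5 against siELOVL2. Those 5 counts were 254, 26, 825, 516 and 562 in the fit reported. With no trend siELOVL2 and double knockdown against control, double knockdown against siELOVL5 and siELOVL5 against siELOVL2 had 101, 413, 200 and 213, double knockdown against siELOVL2 21 (11 as reported) and the interaction 9 (0 as reported). With only the groups compared there were 412 for siELOVL2 and 1 for siELOVL5 against control, 1 and 21 for double knockdown against siELOVL2 and siELOVL5, and 49 for siELOVL5 against siELOVL2. Leaving out 1 library gave 63 to 829, 9 to 39 and 325 to 1775 for siELOVL2, siELOVL5 and double knockdown against control, the highest without siELOVL5 replicate 3 and the lowest without control replicate 2.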
